A study of Mus musculus with 17 samples.

Results

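The immediate early genes described here are Fos, Fosb, Jun, Junb, Egr1, Ier2, Ier3, Dusp1, Myc and Klf6, 10 genes chosen by name and looked up by symbol in RNA sequencing tables of mouse liver and of isolated mouse hepatocytes. All 10 were found among the 49315 genes of the liver tables and the 15632 genes listed in at least 1 hepatocyte file. All 10 also passed the filter on low counts, which left 15820 liver and 11471 hepatocyte genes for testing. The study compared mice with lesions of the sphingomyelin synthase family, Sms1 and Sms2 (gene symbols Sgms1 and Sgms2) and the related Smsr (gene symbol Samd8). The liver libraries were 4 labelled WT and 4 labelled SMSrKO, all from mice that ate a high-fat diet and drank fructose for 16 weeks. The hepatocyte libraries were 3 labelled WT, 3 labelled Sms1/Sms2-dKO (dKO) and 3 labelled Sms1/Sms2/Smsr-tKO (tKO), all from mice aged 2 months, with the cells freed from the liver by collagenase in 2 steps. The dKO and tKO groups thus share the lesions of Sms1 and Sms2. How the genes were deleted, including any Cre driver, the sex of the mice, the age of the liver mice and the diet of the hepatocyte mice are not stated in the labels used here.

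Immediate early genes are transcribed within minutes of a growth factor, cytokine or stress signal, without new protein synthesis, because the factors that switch them on (SRF with its ternary complex partners, CREB and others) are already present and are activated by kinases. Fos and Jun family proteins then pair through leucine zippers to form the transcription factor AP-1, Egr1, Klf6 and Myc regulate further genes, and Dusp1 removes phosphate from MAP kinases and so damps the signal. In the liver these genes are known for their burst after partial hepatectomy. Handling of tissue and the isolation of cells also induce them, so a level in isolated hepatocytes is not that of the liver in place.

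The promoters of 3 members are shown. Fos and Fosb differed most from WT in both mutant hepatocyte groups, as described further on. Dusp1 was 1 of 7 members called between libraries labelled dKO and tKO, where Ier3 differed most (−0.71 log2 in tKO against dKO, 0.57 for Dusp1). They were taken from RefSeq on GRCm38.p6 and end before the RefSeq start, or before the gene span of the liver tables where that lies further upstream. Capitals mark TGACG on either strand (CGTCA on the strand shown), the core of the cAMP response element to which CREB and ATF proteins bind, and TATAAA, the TATA box. The Fos window is chr12:85473640-85473889 on the plus strand, the Fosb window chr7:19310052-19310295 on the minus strand and the Dusp1 window chr17:26508520-26508722 on the minus strand.
Fos: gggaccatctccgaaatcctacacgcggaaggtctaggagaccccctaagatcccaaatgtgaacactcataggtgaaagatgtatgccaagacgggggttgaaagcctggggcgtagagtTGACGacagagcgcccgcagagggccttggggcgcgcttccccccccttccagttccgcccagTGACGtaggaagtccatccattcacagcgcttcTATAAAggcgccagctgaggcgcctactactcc
Fosb: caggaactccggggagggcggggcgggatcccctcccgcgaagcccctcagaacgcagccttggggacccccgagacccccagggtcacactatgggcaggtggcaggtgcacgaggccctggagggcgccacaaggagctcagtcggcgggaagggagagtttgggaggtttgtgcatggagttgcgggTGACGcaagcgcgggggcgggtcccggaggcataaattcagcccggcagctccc
Dusp1: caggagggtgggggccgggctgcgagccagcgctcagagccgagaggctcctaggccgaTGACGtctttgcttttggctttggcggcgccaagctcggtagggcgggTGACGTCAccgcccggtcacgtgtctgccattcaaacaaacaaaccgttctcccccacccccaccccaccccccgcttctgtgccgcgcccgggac
Position −1 is the last base before the RefSeq start. The Fos window held TGACG at −129 to −125 and at −66 to −62 and TATAAA at −33 to −28. The Fosb window held TGACG at −60 to −56. The Dusp1 window held TGACG at −191 to −187 and the complete element TGACGTCA, which contains the core on both strands, at −143 to −136.

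The promoter table matched 7 of the 10 members, not Egr1, Ier2 and Myc, and 7 motifs were searched on both strands of the 250 bases before the start. The core TGACG lay in 4 of the 7 (Fos, Fosb, Junb and Dusp1) and in 17.9% of the 27025 promoters in the table. It was absent from Ier3, so the printed promoters, which all hold it, do not stand for the members that differed. The complete TGACGTCA lay in Dusp1 alone of the 7 and in 1.62% of all promoters. The GC box GGGCGG lay in 6 of the 7, all but Junb, against 32.9% of all, and TATAAA in Fos alone, against 13.0%. The AP-1 site TGACTCA (4.43% of all), the CArG box bound by SRF (1.40%) and the site GCGTGGGCG bound by Egr proteins (0.54%) had no match in these 7 windows. Motifs are described as letters in a fixed window only, and the liver tables place the starts of Fosb, Ier3 and Dusp1 6, 29 and 47 bases further upstream than RefSeq does.

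Depth ranged from 24391627 to 47351126 counts per library in liver and from 9221481 to 9665310 expected counts in hepatocytes. For hepatocytes the labels give n = 3 mice per group, but no label of either experiment ties a library to 1 animal. Each p-value thus reflects how far these samples differ from one another, which may be technical in origin. That spread was small in hepatocytes, where the common biological coefficient of variation was 3.52% against 20.3% in liver, and where replicate pairs differed by 1.55 to 2.82 times the variance of counting alone (27.5 to 229 times in liver). For that reason hepatocyte calls were also made with the common dispersion of the liver libraries, the same value for every gene. Among liver libraries WT 1 stood apart, with 212 to 229 times the counting variance against the other WT libraries, and the members' liver fold changes are given with and without it. Of the 3 targeted genes, Sgms2 in hepatocytes was the only one with less RNA under a knockout label (183 ± 7.69 CPM in WT, 150.0 ± 15.8 in dKO and 149.6 ± 7.12 in tKO, SD, n = 3 each). Sgms1 was called higher than in WT in dKO (0.86 log2, edgeR adjusted p = 5.57e-21) and in tKO (0.24, edgeR adjusted p = 0.00178). Samd8 was called higher in tKO than in WT (0.53, edgeR adjusted p = 5.41e-13) or dKO (0.3, edgeR adjusted p = 9.23e-06). In liver Samd8 stood 0.35 log2 higher in SMSrKO, not called (edgeR adjusted p = 0.218). The levels thus do not check the labels. For the SMSrKO experiment the extract protocol names sWAT, subcutaneous white fat, but the tissue label reads liver and the sample titles read liver cells. The markers of these libraries were those of liver: 7 hepatocyte markers summed to 50888 to 82712 CPM, 5 adipocyte markers to 0.307 to 2.60 CPM, and Lep was at 0 in every liver library.

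In hepatocytes all 10 members were higher in libraries labelled dKO than in WT and all 10 were higher in those labelled tKO than in WT. Fos and Fosb were about 4 to 6 times the WT level in both groups, and the other 8 rose by less. Between tKO and dKO, Egr1, Dusp1, Myc and Klf6 were higher in tKO, Jun, Junb and Ier3 were lower, and Fos, Fosb and Ier2 did not pass the test. A gene was called where edgeR's quasi-likelihood test, adjusted by Benjamini and Hochberg over all genes, gave an adjusted p below 0.05. Of all genes tested, 44.0% were called between dKO and WT and 47.4% between tKO and WT, with 24.0% and 25.6% called higher. The 10 members had a median log2 fold change of 0.70 in dKO and 0.59 in tKO, against −0.01 and 0.00 over all genes. The groups did not overlap in any of the 10 genes, as in 51.9% of all genes for dKO and 53.4% for tKO. Both comparisons use the same 3 WT libraries, so their directions are not independent of each other. Levels are given as CPM, a gene's count scaled to the size of its library, and differences as log2 fold changes with their SE. In bulk RNA, a change in the number of cells of a type and a change in RNA per cell cannot be told apart.

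**Figure D1:**
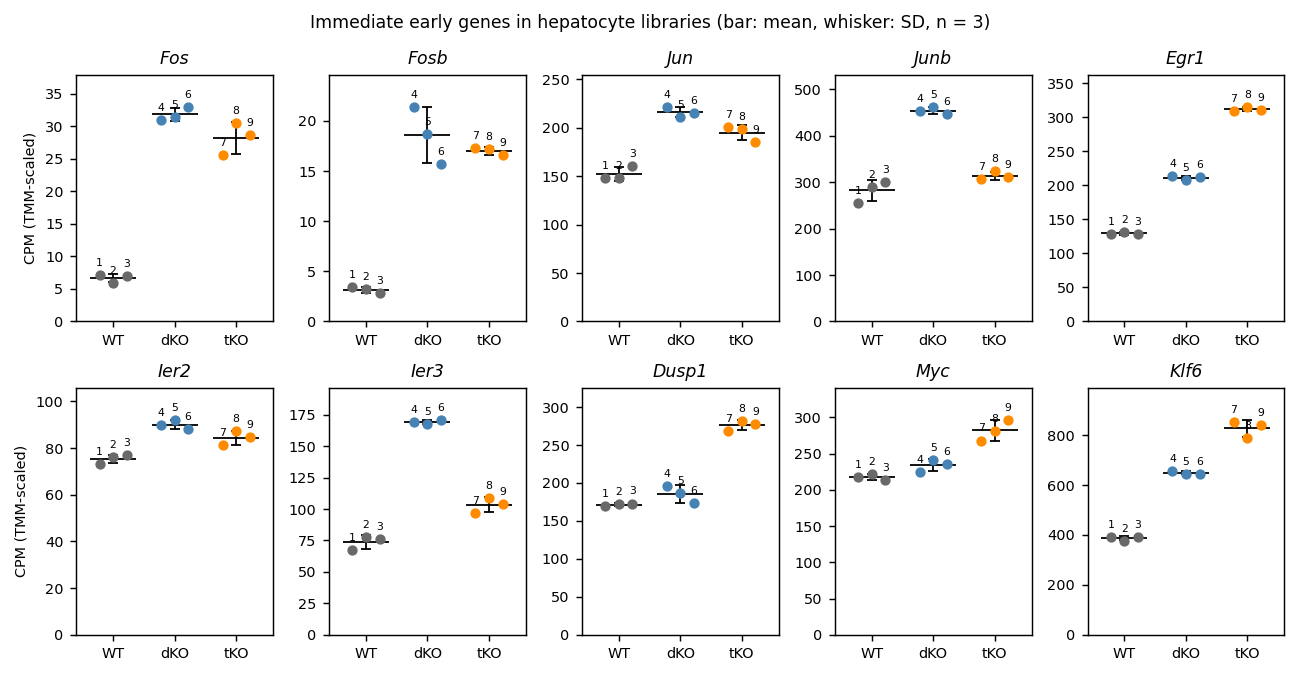
CPM of the 10 immediate early genes in the 9 hepatocyte libraries, with a point per library marked by its replicate number, bars for the mean and whiskers for the SD of 3 libraries. Every point of the libraries labelled dKO and tKO lies above every WT point in all 10 genes, with the widest relative gaps in Fos (5.95 to 7.13 CPM in WT) and Fosb (2.82 to 3.40 CPM in WT).

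Fos, the AP-1 subunit that pairs with Jun proteins (chromosome 12, 85473890 to 85477273, plus strand, GRCm38), stood at 7.13, 5.95 and 7.04 CPM in WT 1 to 3. It stood at 31.0, 31.5 and 33.0 CPM in dKO 4 to 6 and at 25.6, 30.5 and 28.7 CPM in tKO 7 to 9. These levels came from 55 to 65 counts per WT library, 290 to 306 per dKO library and 248 to 293 per tKO library. All 6 mutant libraries lay far above the 3 WT libraries, and the 3 groups did not overlap. Fos rose by 2.24 ± 0.112 log2 (SE) in dKO (edgeR adjusted p = 1.96e-30) and by 2.07 ± 0.114 in tKO (edgeR adjusted p = 5.57e-28). Its promoter, printed above, held the core element at 2 places and the TATA box.

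Fosb, another subunit of the Fos family (chromosome 7, 19302696 to 19310051, minus strand), was the member with the largest fold change in both comparisons with WT. It stood at 3.40, 3.24 and 2.82 CPM in WT, at 21.4, 18.7 and 15.7 CPM in dKO and at 17.3, 17.2 and 16.6 CPM in tKO. The WT libraries were lowest, and the tKO libraries lay within the range of the dKO libraries. The fold change was 2.56 ± 0.154 log2 in dKO (edgeR adjusted p = 1.63e-25) and 2.43 ± 0.156 in tKO (edgeR adjusted p = 5.01e-24). Fosb rested on 26 to 31 counts in each WT library.

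Jun, the subunit that can also pair with itself (chromosome 4, 95049034 to 95052222, minus strand), stood at 148, 148 and 160.5 CPM in WT, 222, 211 and 215 in dKO and 201, 199 and 186 in tKO. The groups kept apart, with WT lowest and dKO highest. Jun rose by 0.51 ± 0.0459 log2 in dKO (edgeR adjusted p = 3.29e-16) and by 0.36 ± 0.0461 in tKO (edgeR adjusted p = 2.64e-10).

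Junb, a Jun family member that can oppose Jun in cell growth (chromosome 8, 84974484 to 84978718, minus strand), stood at 256, 290.2 and 300.5 CPM in WT, at 453, 462 and 447 CPM in dKO and at 307, 323 and 311 CPM in tKO. The dKO libraries stood well above the rest, while the lowest tKO library was close to the highest WT library. Junb rose by 0.69 ± 0.0423 log2 in dKO (edgeR adjusted p = 4.11e-24). In tKO it rose by 0.15 ± 0.043 (edgeR adjusted p = 0.00196), a call that ended without WT 1 (0.09, edgeR adjusted p = 0.115).

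Egr1, a zinc finger transcription factor, stood at 128, 132 and 128 CPM in WT, at 213, 208 and 212 CPM in dKO and at 309, 316 and 311 CPM in tKO. The 3 groups formed 3 separate steps, with WT lowest and tKO highest. The fold change was 0.70 ± 0.0449 log2 in dKO (edgeR adjusted p = 4.11e-24) and 1.27 ± 0.0437 in tKO (edgeR adjusted p = 2.49e-41).

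Klf6, a zinc finger factor of the Krüppel-like family (chromosome 13, 5861489 to 5870393, plus strand), followed the same order as Egr1. It stood at 392, 377 and 391 CPM in WT, at 656, 644 and 646 CPM in dKO and at 851, 789 and 841 CPM in tKO, with no overlap between groups. Klf6 rose by 0.75 ± 0.038 log2 in dKO (edgeR adjusted p = 5.52e-30) and by 1.10 ± 0.0378 in tKO (edgeR adjusted p = 2.49e-41).

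Myc, which drives genes of growth and ribosome production (chromosome 15, 61985391 to 61990374, plus strand), stood at 218, 222 and 214 CPM in WT, at 225, 242 and 236 CPM in dKO and at 268, 282 and 296 CPM in tKO. The dKO libraries lay only just above WT, and the tKO libraries above both. The difference was 0.37 ± 0.043 log2 in tKO (edgeR adjusted p = 5.48e-12). In dKO it was 0.11 ± 0.0437 (edgeR adjusted p = 0.0421), a call that ended in DESeq2 (adjusted p = 0.0850) and without WT 1, WT 2, WT 3, dKO 5 or dKO 6 (edgeR adjusted p up to 0.192).

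Ier3, a small protein induced by growth factors and NF-κB that affects cell survival (chromosome 17, 35821684 to 35822923, plus strand), stood at 67.8, 78.0 and 76.3 CPM in WT. It stood at 169, 168 and 171 CPM in dKO and at 97.1, 109 and 104 CPM in tKO. The dKO libraries were highest, and tKO lay between dKO and WT without overlap. Ier3 rose by 1.19 ± 0.0531 log2 in dKO (edgeR adjusted p = 1.21e-33) and by 0.48 ± 0.0556 in tKO (edgeR adjusted p = 6.17e-12).

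Ier2, an immediate early nuclear protein (chromosome 8, 84661331 to 84662852, minus strand), showed smaller differences. It stood at 73.3, 76.0 and 76.8 CPM in WT, 90.0, 92.0 and 88.2 in dKO and 81.3, 87.2 and 84.7 in tKO. The 3 groups did not overlap, with dKO highest. Ier2 rose by 0.26 ± 0.0559 log2 in dKO (edgeR adjusted p = 8.2e-05) and by 0.16 ± 0.056 in tKO (edgeR adjusted p = 0.0124), and the tKO call ended without WT 1 (edgeR adjusted p = 0.0609) or tKO 8 (edgeR adjusted p = 0.0649).

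Dusp1, the MAP kinase phosphatase of the set (chromosome 17, 26505590 to 26508519, minus strand), stood at 169, 172 and 173 CPM in WT, at 196, 187 and 174 CPM in dKO and at 269, 282 and 278 CPM in tKO. The tKO libraries were far above the other 6, and the lowest dKO library lay within 1 CPM of the highest WT library. Dusp1 rose by 0.69 ± 0.0443 log2 in tKO (edgeR adjusted p = 5.42e-24). In dKO the difference was 0.11 ± 0.0458 (edgeR adjusted p = 0.0346), a call that ended in DESeq2 (adjusted p = 0.0755) and without WT 1, WT 2, WT 3, dKO 4 or dKO 5 (edgeR adjusted p up to 0.268).

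With the dispersion of the liver libraries, 6 of the 10 members were called in dKO against WT and 5 of the 10 in tKO against WT by edgeR's likelihood ratio test, against 9.20% and 10.6% of all genes under the same setting. Fos, Fosb, Egr1 and Klf6 were called in both, with Fos at an adjusted p of 1.19e-14 in dKO and 1.69e-12 in tKO in that likelihood ratio test. Junb and Ier3 were further called in dKO and Dusp1 in tKO. Jun, Ier2 and Myc were called in neither. This dispersion is common to all genes and is not the members' own spread in liver. Within liver groups the members' median SD of log2 CPM was 0.565, against 0.233 over all genes.

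**Figure D2:**
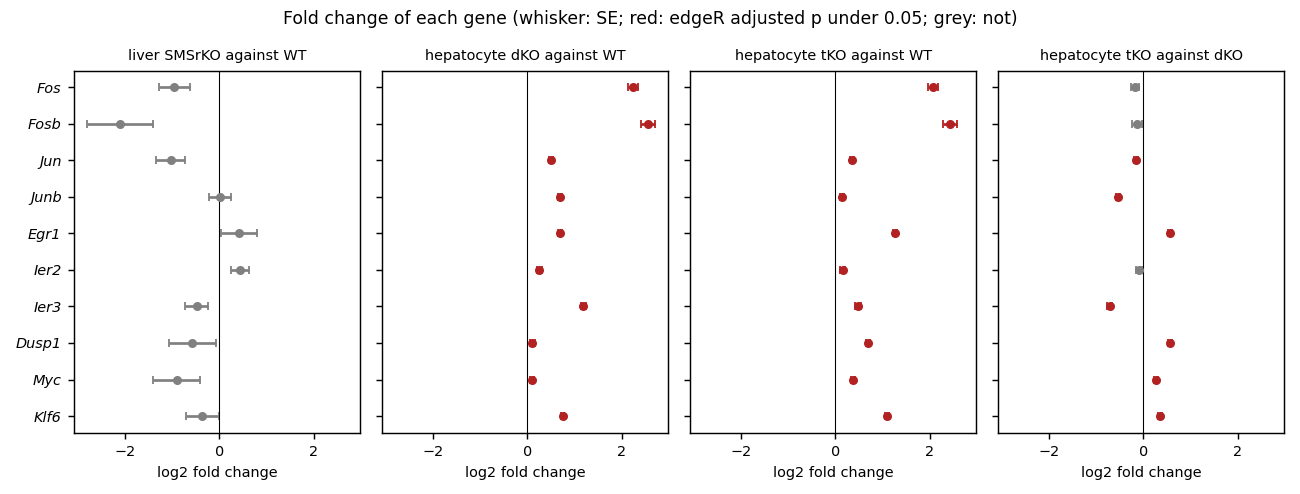
Log2 fold changes of the 10 members in the 4 comparisons, with whiskers for the SE, red points for genes called by edgeR (adjusted p below 0.05) and grey points for the rest. All 10 points are red and above 0 in dKO and tKO against WT, 7 are red in tKO against dKO with 4 above and 3 below 0, and all 10 are grey in liver.

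By its labels, the comparison of tKO with dKO adds the lesion of Smsr where Sms1 and Sms2 are already hit. It shares its libraries with the comparisons above. It called 7 members, 4 higher and 3 lower in tKO, against 29.5% of all genes called (14.3% higher and 15.2% lower). The groups did not overlap in 9 of the 10, all but Fosb, as in 39.8% of all genes, and the members' median was −0.11 against 0.00 over all genes. Dusp1 was higher in tKO by 0.57 ± 0.0439 log2 (edgeR adjusted p = 2.02e-19) and Egr1 by 0.56 ± 0.0415 (edgeR adjusted p = 2.68e-20). Klf6 was higher by 0.35 ± 0.0367 (edgeR adjusted p = 3.65e-13) and Myc by 0.27 ± 0.0427 (edgeR adjusted p = 3.23e-07). These 4, the phosphatase and the transcription factors outside AP-1, were thus highest in tKO. Ier3 fell by 0.71 ± 0.0504 log2 (edgeR adjusted p = 3.77e-21) and Junb by 0.53 ± 0.0419 (edgeR adjusted p = 2.83e-18). Jun fell by 0.15 ± 0.0446 (edgeR adjusted p = 0.0074), a call that ended without tKO 9 (−0.11, edgeR adjusted p = 0.0901).

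Of the members, Fos, Fosb and Ier2 had no called difference between the mutant groups. Fos stood at −0.17 ± 0.0842 log2 in tKO against dKO (95% interval −0.339 to −0.004, edgeR adjusted p = 0.120) although all 3 tKO libraries lay below all 3 dKO libraries. Fosb stood at −0.13 ± 0.110 (95% interval −0.348 to 0.091, edgeR adjusted p = 0.419) and Ier2 at −0.09 ± 0.0547 (95% interval −0.203 to 0.015, edgeR adjusted p = 0.200). These intervals leave room for a difference of up to about 0.35 log2 in Fosb in the direction seen. With the dispersion of the liver libraries, 0 of the 7 calls between tKO and dKO remained in edgeR's likelihood ratio test, where Ier3 had the smallest adjusted p among members (0.0938) and 326 of all genes (2.84%) were called.

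Genes of other cell types moved in the same libraries. Markers of macrophages, the phagocytes of the liver, summed to 122 to 138 CPM in WT, 325 to 342 in dKO and 364 to 382 in tKO, and the 6 of 11 that passed the filter on low counts were all called higher in both mutant groups. Markers of liver endothelium summed to 23.7 to 26.8 CPM in WT, 141 to 158 in dKO and 80.3 to 86.7 in tKO, with 10 of 10 called higher in dKO, 9 of 10 in tKO and 8 of 10 called lower in tKO than in dKO. Stellate cell and fibroblast markers summed to 15.9 to 19.9, 50.9 to 56.6 and 31.4 to 35.6 CPM in the same order. Only 4 of these 9 passed the filter, and 3 were called higher in each mutant group. Cholangiocyte markers summed to 71.3 to 88.4, 198 to 217 and 161 to 168 CPM. Only 2 of these 5 passed the filter, and 1 was called higher in each mutant group. The 7 hepatocyte markers found of 8 summed to 54884 to 56701 CPM in WT, 47803 to 48786 in dKO and 43308 to 45351 in tKO. Singly they went both ways. In each mutant group 1 was called higher and 3 lower than in WT (median −0.22 log2 in dKO and −0.05 in tKO). Between tKO and dKO, 2 were called higher and 3 lower. Lymphocyte markers reached at most 1.25 CPM and neutrophil markers 0.534 CPM in any hepatocyte library, with S100a8 and Mpo not listed. The shares of all genes called were 44.0% in dKO (24.0% higher) and 47.4% in tKO (25.6% higher). In tKO against dKO, 14.3% were called higher and 15.2% lower. The part of these cell types in the levels of the immediate early genes was not tested.

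Heat shock genes that cell dissociation also induces did not follow the same order. Their sum was 6929 to 7198 CPM in WT, 5964 to 6083 in dKO and 7788 to 8272 in tKO. Of 11, 2 were called higher and 5 lower in dKO against WT (median −0.09 log2) and 10 and 0 in tKO against WT (median 0.32). In tKO against dKO, 9 were called higher and 0 lower (median 0.34). The shares of all genes called were 44.0% (24.0% higher), 47.4% (25.6% higher) and 29.5% (14.3% higher) in that order. The constitutive chaperone Hspa8 fell by 0.34 ± 0.0338 log2 in dKO (edgeR adjusted p = 3.01e-14), while the small heat shock protein Hspb1 rose by 1.20 ± 0.0553 in tKO (edgeR adjusted p = 1.03e-32). Under the liver dispersion, 1 of the 11 (Hspa1a) was called higher and 0 lower in dKO against WT, where Hspa8 was not called (edgeR adjusted p = 0.642). Under the same dispersion, 3 were called higher in tKO against WT and 3 in tKO against dKO, among them Hspb1 in both. Of all genes, that dispersion called 9.20% in dKO against WT, 10.6% in tKO against WT and 2.84% in tKO against dKO. Egr1, Dusp1, Myc and Klf6 and most heat shock genes were thus higher in tKO than in dKO, and the part of heat shock in the differences of the immediate early genes was not tested.

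**Figure D3:**
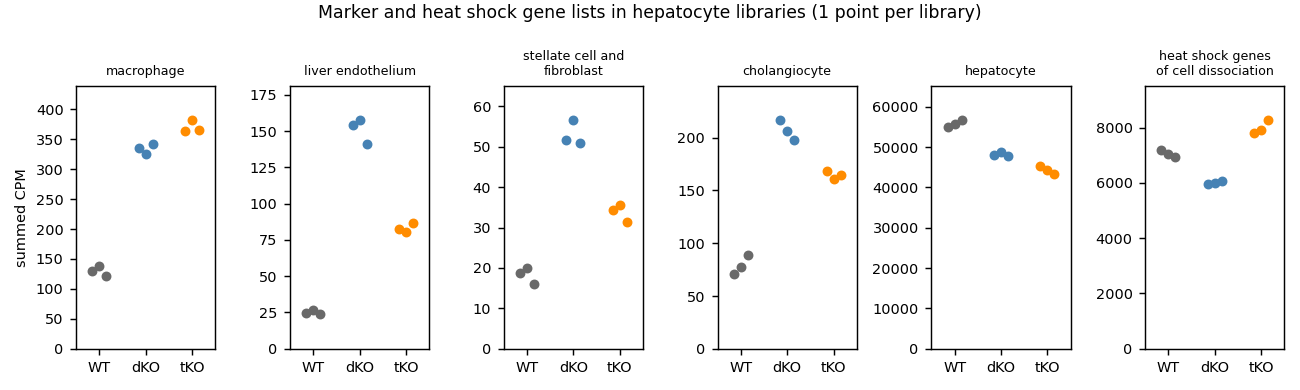
Summed CPM of marker lists for other cell types and of heat shock genes in the 9 hepatocyte libraries, with 1 point per library. The macrophage, endothelial, stellate and cholangiocyte sums are lowest in the WT libraries, while the heat shock sum is lowest in the libraries labelled dKO and highest in those labelled tKO.

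Other genes of the AP-1 and early response machinery were read from lists named for their role. Of 8 tested AP-1 partners, the bZIP proteins that pair with Fos and Jun, 6 were called higher and 0 lower in dKO (median 0.48 log2), and 6 and 0 in tKO (median 0.26). The shares of all genes called higher were 24.0% in dKO and 25.6% in tKO. Given the liver dispersion, 2 partners remained in each, Atf3 and Maff, where 9.20% and 10.6% of all genes were called. The stress factor Atf3 rose by 0.99 ± 0.0563 log2 in dKO (edgeR adjusted p = 1.4e-20) and by 1.05 ± 0.0559 in tKO (edgeR adjusted p = 8.24e-22). The small Maf protein Maff rose by 0.69 ± 0.0472 in dKO and 0.71 ± 0.047 in tKO. Fosl2, a Fos relative, was lower in tKO than in dKO by −0.53 ± 0.0551 (edgeR adjusted p = 2.88e-13), a call that ended with the liver dispersion (edgeR adjusted p = 0.397), where 0 of the 8 partners were called between tKO and dKO, against 2.84% of all genes.

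Of 31 other immediate early regulators, 24 were called higher and 1 lower in dKO (median 0.56 log2), and 25 and 4 in tKO (median 0.50). The shares of all genes called were 44.0% in dKO (24.0% higher) and 47.4% in tKO (25.6% higher). The kinase Plk2 rose by 1.27 ± 0.0616 log2 in dKO (edgeR adjusted p = 3.13e-31) and by 2.28 ± 0.0568 in tKO (edgeR adjusted p = 3.45e-51). The factor Cebpd stood at 51.4 CPM in WT, 145 in dKO and 72.8 in tKO and was lower in tKO than in dKO by −1.0 ± 0.0545 (edgeR adjusted p = 1.11e-27). Between tKO and dKO the list split into 7 higher and 13 lower, against 14.3% and 15.2% of all genes. Given the liver dispersion, 13 of the 31 were called higher and 0 lower in dKO, and 14 and 1 in tKO (9.20% and 10.6% of all genes called). Between tKO and dKO, 3 were then called higher and 2 lower (2.84% of all genes), with Plk2 and Cebpd among them.

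Feedback genes are early response genes whose products limit the signal. Of 12 MAP kinase feedback genes, 7 were called higher and 1 lower in dKO, and 6 and 2 in tKO, against 24.0% and 25.6% of all genes called higher. Dusp4, a nuclear MAP kinase phosphatase like Dusp1, rose by 1.54 ± 0.118 log2 in dKO (edgeR adjusted p = 7.2e-20) and by 2.07 ± 0.110 in tKO (edgeR adjusted p = 7.12e-29). Of 10 RNA decay and antiproliferative feedback genes, 9 were called higher and 0 lower in dKO (median 0.78 log2), 6 and 1 in tKO (median 0.39), and 0 and 7 in tKO against dKO (median −0.27). Between tKO and dKO, 14.3% of all genes were called higher and 15.2% lower. Zfp36, which binds AU-rich elements and speeds the decay of early response RNAs, rose by 1.09 ± 0.0589 in dKO (edgeR adjusted p = 1.33e-26) and by 0.81 ± 0.0599 in tKO (edgeR adjusted p = 9.79e-20). Nfkbia, the inhibitor of NF-κB, rose by 1.39 ± 0.0523 in dKO (edgeR adjusted p = 1.4e-38) and by 1.18 ± 0.0529 in tKO (edgeR adjusted p = 1.23e-33). At the liver dispersion, 5 of the 12 MAP kinase feedback genes were called higher in dKO and 4 in tKO, and 5 and 3 of the 10 RNA decay genes, and 0 of either list between tKO and dKO. The shares of all genes called at that dispersion were 9.20% in dKO, 10.6% in tKO and 2.84% between tKO and dKO.

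RNA of the upstream machinery did not move in 1 direction. Of 25 genes of signalling to SRF and AP-1, 8 were called higher and 8 lower in dKO (median −0.05 log2), and 5 and 7 in tKO (median −0.04). The ternary complex factor Elk3 rose by 1.78 ± 0.229 in dKO from 1.77 to 6.12 CPM (edgeR adjusted p = 3.1e-10), and the growth factor receptor Egfr fell by 0.40 ± 0.0386 in tKO (edgeR adjusted p = 4.94e-15). Of 8 genes of the Myc network, 3 were called higher and 2 lower in each comparison with WT. Mxd1, a Max partner that opposes Myc, rose by 1.5 ± 0.116 in dKO (edgeR adjusted p = 1.3e-19). Of 15 Myc target genes, 3 were called higher and 8 lower in dKO and 6 higher and 5 lower in tKO. Between tKO and dKO, 6 Myc targets were called higher and 2 lower, with Ldha, lactate dehydrogenase, lower by −0.51 ± 0.0345 (edgeR adjusted p = 4.37e-22). At the liver dispersion, Elk3 alone of the 25 signalling genes and 0 of the 15 Myc targets were called in dKO against WT. The falls of Egfr in tKO against WT and of Ldha in tKO against dKO were not called there (edgeR adjusted p = 0.424 for Egfr and 0.437 for Ldha). The counts against WT in this paragraph are to be read against the 44.0% (dKO) and 47.4% (tKO) of all genes called. Between tKO and dKO that share was 29.5% (14.3% higher and 15.2% lower). At the liver dispersion it was 9.20% in dKO against WT.

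In liver no member was called between SMSrKO and WT, where 37 of 15820 genes or 0.234% were called (19 higher and 18 lower, or 15 and 24 with scaling by library totals only). At an unadjusted p under 0.05, 4 of the 10 members passed, Fos, Fosb and Jun lower and Ier2 higher in SMSrKO, against 13.1% of all genes. The members' median log2 fold change was −0.53 against −0.01 over all genes. In simulated data the same test recovered 13.4% of genes changed 1.5-fold, 73.1% of those changed 2-fold and 98.5% of those changed 4-fold. Every simulated gene had the common dispersion, and no simulated library stood apart. The members varied more in liver than most genes, so these shares need not hold for them. The liver test was run on 4 libraries of each group, and values below are in the order WT 1 to 4 and SMSrKO 5 to 8.

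**Figure D4:**
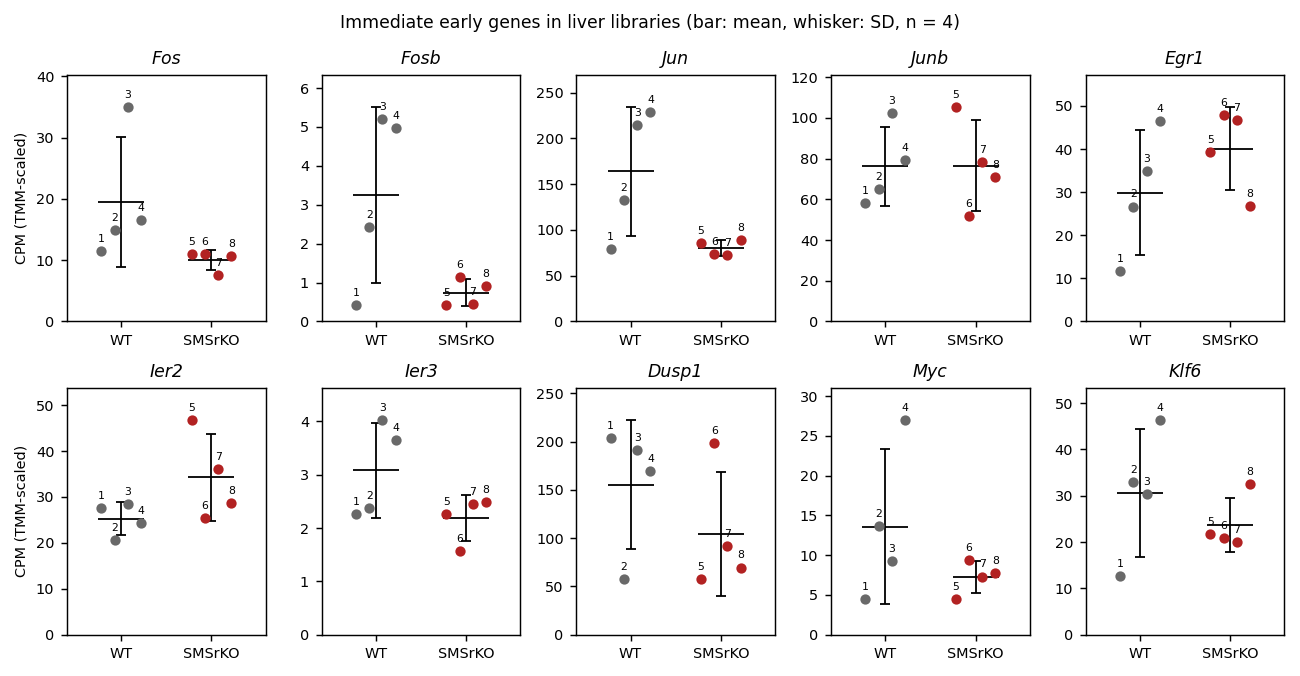
CPM of the 10 members in the 8 liver libraries, with a point per library marked by its replicate number, bars for the mean and whiskers for the SD of 4 libraries. Jun, Fos and Fosb scatter widely in WT and lie low in the libraries labelled SMSrKO, and the groups overlap in every gene but Fos.

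Fos stood at 11.4, 14.9, 35.0 and 16.6 CPM in WT and at 10.9, 10.997, 7.55 and 10.6 CPM in SMSrKO. Every WT library lay above every SMSrKO library, by a margin of less than 1 CPM between WT 1 and SMSrKO 6, and WT 3 was highest. Fos was the only member whose groups did not overlap, as in 8.12% of all genes. Its fold change was −0.95 ± 0.330 log2 (95% interval −1.70 to −0.20, edgeR adjusted p = 0.278), −0.52 without WT 3 and −1.15 without WT 1 (edgeR adjusted p = 0.166).

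Fosb stood at 0.431, 2.42, 5.19 and 4.98 CPM in WT and at 0.434, 1.14, 0.458 and 0.921 CPM in SMSrKO. Jun stood at 79.0, 133, 215 and 229 CPM in WT and at 85.2, 73.8, 72.6 and 89.4 CPM in SMSrKO. In both genes WT 1 lay among the SMSrKO libraries or just below them while the other 3 WT libraries lay above all of them. The fold change was −2.10 ± 0.696 log2 for Fosb (edgeR adjusted p = 0.260) and −1.03 ± 0.301 for Jun (edgeR adjusted p = 0.212). Without WT 1 both were called lower, Fosb at −2.48 (edgeR adjusted p = 0.0250) and Jun at −1.26 (edgeR adjusted p = 0.0215), where 0.682% of all genes were called. DESeq2 called both with all libraries (adjusted p = 0.0217 for Fosb and 0.0191 for Jun), and limma-voom with sample weights called Jun (adjusted p = 0.0386). Of all genes, DESeq2 called 2.53% and limma-voom 1.20%.

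Junb stood at 58.1, 65.1, 102 and 79.4 CPM in WT and at 106, 51.7, 78.5 and 70.9 CPM in SMSrKO, fully overlapping. Its fold change was 0.01 ± 0.235 log2 (95% interval −0.524 to 0.539, edgeR adjusted p = 0.992), and −0.10 without WT 1. Junb and Jun are each crossed by a gene on the other strand in the annotation, Prdx2 and the antisense RNA Junos, and no label states whether reads were counted by strand, so their levels may hold reads of those genes.

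Egr1 stood at 11.8, 26.7, 34.8 and 46.4 CPM in WT and at 39.2, 47.8, 46.7 and 26.7 CPM in SMSrKO. Klf6 stood at 12.7, 33.0, 30.3 and 46.3 CPM in WT and at 21.6, 20.8, 20.1 and 32.4 CPM in SMSrKO. The groups overlapped in both, and WT 1 was the lowest library of all 8 in each. The fold change was 0.42 ± 0.384 log2 for Egr1 (edgeR adjusted p = 0.674), or 0.15 without WT 1, and −0.36 ± 0.354 for Klf6 (edgeR adjusted p = 0.700), or −0.62 without WT 1 (edgeR adjusted p = 0.240). Myc stood at 4.46, 13.7, 9.29 and 27.0 CPM in WT and at 4.52, 9.43, 7.32 and 7.72 CPM in SMSrKO. WT 4 lay far above the rest, and its fold change of −0.90 ± 0.501 (edgeR adjusted p = 0.487) was −0.32 without WT 4 and −1.20 without WT 1.

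Ier2 stood at 27.6, 20.7, 28.5 and 24.3 CPM in WT and at 46.7, 25.4, 36.1 and 28.7 CPM in SMSrKO. Of the 4 SMSrKO libraries, 3 lay above all WT libraries. The fold change was 0.44 ± 0.185 log2 (edgeR adjusted p = 0.361), or 0.48 without WT 1. Ier3 was low in all libraries, at 2.26 to 4.03 CPM in WT and 1.57 to 2.48 CPM in SMSrKO, with a fold change of −0.48 ± 0.247 (edgeR adjusted p = 0.433), or −0.61 without WT 1. Dusp1 stood at 204, 57.4, 191 and 169 CPM in WT and at 58.0, 198, 91.8 and 69.7 CPM in SMSrKO. In each group 1 library went against the rest, WT 2 low and SMSrKO 6 high. The fold change of Dusp1 was −0.57 ± 0.497 (95% interval −1.725 to 0.577, edgeR adjusted p = 0.662), or −0.42 without WT 1, −0.85 without WT 2, −0.37 without SMSrKO 5 and −1.09 without SMSrKO 6.

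The lists of related genes gave 0 called genes each in liver by edgeR, with all libraries and without WT 1. DESeq2 called 3 AP-1 partners lower (Fosl2, Jund and Atf3), the regulator Id1 higher, Dusp8 and Btg2 lower and the heat shock gene Hspb1 lower. The medians were −0.29 log2 for 11 AP-1 partners (4 of them under an unadjusted p of 0.05), −0.27 for 33 other immediate early regulators (5), 0.11 for 13 MAP kinase feedback genes (3) and −0.16 for 10 RNA decay and antiproliferative feedback genes (3). For 25 genes of signalling to SRF and AP-1 the median was −0.06 (5), for 9 of the Myc network −0.11 (0), for 15 Myc targets −0.06 (3) and for 11 heat shock genes 0.06 (2). An unadjusted p under 0.05 was reached by 13.1% of all genes in edgeR, and DESeq2 called 2.53% of all genes. Atf3 had 13.0 ± 8.15 CPM in WT and 4.51 ± 1.16 in SMSrKO (−1.52 ± 0.426 log2, edgeR adjusted p = 0.205, DESeq2 adjusted p = 0.00636), and Fosl2 had 27.0 ± 3.12 and 16.6 ± 3.50 (−0.70 ± 0.151, edgeR adjusted p = 0.104), in each case with no overlap between groups. The antiproliferative Btg2 had 62.7 ± 27.9 CPM in WT and 24.5 ± 5.12 in SMSrKO (−1.36 ± 0.331, edgeR adjusted p = 0.159).

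Markers of other cell types in liver overlapped between the groups for macrophages (1155 to 1398 CPM in WT and 679.5 to 1610 in SMSrKO) and endothelium (572 to 694 and 503 to 639). Neutrophil markers summed to 9.31 to 39.2 CPM in WT and 1.92 to 19.9 in SMSrKO, and erythroid markers to 43.8 to 158 and 40.2 to 44.9. Heat shock genes summed to 3239 to 3732 CPM in WT and 2773 to 4141 in SMSrKO. The sum of hepatocyte markers did not overlap, at 50888 to 65017 CPM in WT and 73236 to 82712 in SMSrKO. Of the 7 hepatocyte markers tested singly, edgeR called 0, and their median was 0.27 log2. An unadjusted edgeR p under 0.05 was reached by 1 of them and by 13.1% of all genes. What part these markers and the higher hepatocyte sum have in the liver values of the immediate early genes was not tested.

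The members varied more within groups of liver libraries than most genes did. The SD of log2 CPM within groups ran from 0.311 for Ier2 to 1.27 for Fosb, with a median of 0.565 over the members against 0.233 over all genes tested. All 10 lay between percentiles 63.7 and 99.2 of all genes, with Dusp1 at percentile 96.0 and Myc at percentile 96.1. In hepatocytes the same SD ran from 0.0199 for Egr1 to 0.151 for Fosb, with a median of 0.0562 against 0.103 over all genes. There the members lay between percentiles 0.2 and 69.1. The SD was smaller in hepatocytes than in liver for each of the 10.

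**Figure D5:**
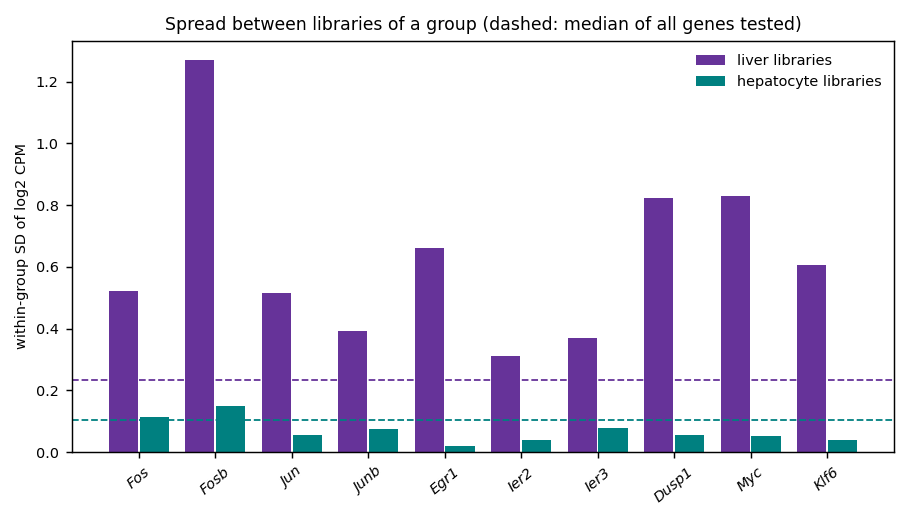
SD of log2 CPM within groups for the 10 members in liver and in hepatocytes, with a dashed line at the median of all genes tested. All 10 members lie above the line in liver (0.233), and 8 of 10 lie below it in hepatocytes (0.103), with Fos and Fosb above.

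Levels corrected for gene length allow the members to be ranked within a group. In WT liver, on the TPM scale, Dusp1 (127 ± 51.4), Jun (116 ± 51.0) and Junb (74.2 ± 18.3) led, and neighbours in this order overlapped between libraries. Ier2 followed at 37.0 ± 3.43 TPM, then Fos, Klf6, Egr1 and Myc at 18.5 to 11.5 TPM with overlapping ranges, then Ier3 (6.10 ± 1.76) and Fosb (1.18 ± 0.811). In SMSrKO liver Dusp1 (83.3 ± 49.9), Junb (71.7 ± 19.3) and Jun (54.4 ± 6.86) led, and Fos stood at 9.20 ± 1.496 TPM and Fosb at 0.256 ± 0.123.

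In WT hepatocytes, on the FPKM scale, Junb led at 158 ± 13.5, above Myc, Klf6 and Dusp1 at 92.6 to 90.1 FPKM, which did not differ beyond their ranges. Fos (3.26 ± 0.318) and Fosb (0.860 ± 0.0721) stood last, below Egr1 at 42.7 ± 0.724 FPKM. In dKO Junb (255 ± 3.50), Ier3 (165 ± 2.34) and Klf6 (155 ± 2.18) led without overlap. In tKO Klf6 (201 ± 8.23) stood above Junb (179 ± 4.80) and Dusp1 (148 ± 4.10), again without overlap. Fos and Fosb stayed last in both, at 15.5 ± 0.522 and 5.05 ± 0.755 FPKM in dKO and 14.0 ± 1.25 and 4.70 ± 0.104 FPKM in tKO. TPM and FPKM tables were normalized separately, so no level was tested between liver and hepatocytes. Within each table Fosb was the lowest member in all 5 groups.

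The 2 comparisons that by their labels add the lesion of Smsr share no libraries, liver SMSrKO against WT and hepatocyte tKO against dKO. Their fold changes for the members stand side by side as follows. The AP-1 subunits Fos, Fosb and Jun were at −0.95, −2.10 and −1.03 log2 in liver and at −0.17, −0.13 and −0.15 in hepatocytes. Junb was at 0.01 and −0.53, and Ier3 at −0.48 and −0.71. Egr1 was at 0.42 and 0.56 and Ier2 at 0.44 and −0.09. Klf6, Myc and Dusp1 were at −0.36, −0.90 and −0.57 in liver and at 0.35, 0.27 and 0.57 in hepatocytes. None of the liver values was called in edgeR. In hepatocytes Fos, Fosb and Ier2 were not called, and the call of Jun ended when a single tKO library was left out. With the dispersion of the liver libraries, 0 of the hepatocyte values were called. The samples are labelled liver, under titles that read liver cells, in one experiment and are isolated hepatocytes in the other. The difference between the experiments was not tested.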

How the data were processed

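RNA was measured by sequencing in 8 liver and 9 hepatocyte libraries, grouped by their labels. For liver, the authors deposited whole-number counts per Ensembl gene with positions and lengths per the file headers, and a TPM table (recomputed from counts and lengths within 5e-05). For hepatocytes, the authors deposited expected counts and FPKM per Entrez gene, per the file headers. These files list only values above 0. Unlisted genes were set to 0, and the 6.25% of expected counts that were not whole were rounded. Per the submitters' processing notes, the builds GRCm38 and mm10, DESeq2 1.30.1, Bowtie2 2.2.5, STAR 2.5.2b and Trimmomatic 0.36 were used. The labels do not state which of them served which experiment, nor the counting tool and its strand setting.

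Genes that filterByExpr kept at a minimum count of 10 were tested after TMM scaling with edgeR 4.0.16 (robust quasi-likelihood F test, R 4.3.3), adjusted by Benjamini and Hochberg over all genes tested, with a threshold of 0.05. Liver formed 1 fit and the 9 hepatocyte libraries another. SE is the absolute log2 fold change over the square root of F. Summed CPM of lists is relative to library totals. Alternatives were DESeq2 1.42.0, limma 3.58.1 on log2 of TPM or FPKM plus 0.1 or 1, and limma-voom with sample weights. Further ones were scaling by library totals, no filter, each library left out and the 2 groups alone. Hepatocytes were also tested with the common liver dispersion, the same value for every gene. Simulated data gave every gene the common dispersion of its experiment. For liver (15820 genes, 5 of 128 calls false) the test recovered 13.4%, 73.1% and 98.5% of genes changed 1.5-, 2- and 4-fold. For hepatocyte dKO against WT (11471 genes, 10 of 192 calls false) it recovered 80.6%, 94.0% and 98.5%.

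The 10 members were named in every comparison. Of 8 pathway lists with 129 genes, the counts called and up to 3 genes of smallest p were eligible to be named. Members, lists, marker genes and alternatives were chosen with earlier results of these data known. RefSeq promoters (GRCm38.p6) were matched by symbol.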

Additional observations from a re-analysis of the deposited data

Results flagged for a closer look

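In the 4 liver libraries labelled SMSrKO, Fos in SMSrKO 7 stood at 7.55 CPM, further below the others (10.6 to 10.997 CPM) than the spread among them. In the same group, Klf6 in SMSrKO 8 stood at 32.4 CPM, above the others at 20.1 to 21.6 CPM. Each was marked because its gap to the nearest library exceeded Dixon's limit for 4 samples. The test was made on 20 groups, 10 genes in 2 liver groups, and 2 were marked, where chance marks about 1 in 20.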

How the results depend on the processing

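Over the alternatives run, counts of called members gave 56 values within 1.5 times the main count and 6 outside it. In liver, where edgeR called 0 of 10, DESeq2 called 2, limma-voom with sample weights 1, and single left-out libraries gave 0 to 2, with 2 only without WT 1. With the dispersion of the liver libraries the likelihood ratio test called 6 in dKO against WT, 5 in tKO against WT and 0 in tKO against dKO, where the main counts were 10, 10 and 7. Left-out libraries gave 8 to 10, 8 to 10 and 6 to 7. Of the fold changes of single members, 567 alternative values kept direction and call, 39 kept direction and lost the call, 5 gained it and 9 turned direction. All 9 were Junb in liver, at −0.06 with library totals only, −0.001 with every gene kept, −0.06 with limma on log2(TPM + 0.1) and on log2(TPM + 1), −0.04 with limma-voom and −0.18 to −0.003 without WT 1, WT 2, SMSrKO 5 or SMSrKO 7. The left-out libraries together gave −0.18 to 0.17.

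Over all genes, the liver count of 37 was 454 in DESeq2, 136 with every gene kept, 190 in limma-voom and 11 to 109 without single libraries (109 without WT 1). The hepatocyte counts of 5045, 5435 and 3382 were 1055, 1221 and 326 with the liver dispersion. The counts of lists without WT 1, in DESeq2 and with the liver dispersion were added after the data were seen. No paired analysis was possible because the groups compared share no replicate numbers. Fosb is limited by depth, with 10 to 36 counts in each SMSrKO liver library and 26 to 31 in each WT hepatocyte library.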

Other observations

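In the 8 liver libraries the log2 CPM of the members, each centred and scaled and then averaged, was lowest in WT 1 (−0.76), near the middle in WT 2 (−0.10) and highest in WT 3 (0.93) and WT 4 (0.90). The libraries labelled SMSrKO lay between −0.13 and −0.35, so the spread of this average was among WT libraries. With all 8 libraries Jun followed it most closely (Pearson r = 0.93, rho = 0.86), then Fosb (0.87, rho = 0.79), Ier3 (0.85, rho = 0.69) and Fos (0.78, rho = 0.62), while Dusp1 (0.22, rho = −0.40) and Ier2 (−0.17, rho = −0.17) did not. Each member is part of the average it is compared with, and these r values rest on few libraries. Without WT 3 and WT 4, the libraries farthest from the median, r was 0.48 for Jun, 0.45 for Fosb, 0.18 for Ier3 and 0.10 for Fos. It was then highest for Klf6 (0.84, from 0.77) and Egr1 (0.70, from 0.49), and −0.84 for Dusp1, so the order of the members rests on WT 3 and WT 4.

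Likeness to the average was read over 10115 genes with a mean of at least 5 CPM, a count that includes members. Apart from members, those most like it were Aatk (r = 0.96, rho = 0.88), Nap1l1 (r = 0.94, rho = 0.76), Ube2d2a (r = 0.94, rho = 0.64), Basp1 (r = 0.94, rho = 0.88) and Lipa (r = 0.94, rho = 0.86). Aatk encodes a kinase, Nap1l1 a histone chaperone, Ube2d2a a ubiquitin-conjugating enzyme, Basp1 a membrane-bound signal protein and Lipa lysosomal acid lipase. Without WT 3 and WT 4, r was 0.87, 0.86, 0.54, 0.60 and 0.88 in that order. These are descriptions over 8 libraries, in which all genes share each library's depth and composition.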
